A study of Sus scrofa with 67 samples.

Results

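The oviduct on day 12 of the oestrous cycle was compared with the oviduct on day 0, the day on which oestrous behaviour began. The members are the 4 oviduct libraries labelled day 12 and the 3 oviduct libraries labelled day 0, which makes 7 of the 66 libraries in the table, and all genes of the table that could be tested. Libraries were assigned by tissue and day alone, and day 12 was picked among the days because it had the widest change from day 0 in this tissue, so the number of genes called is part of that choice. The table lists 25322 Ensembl genes. Of these, 15665 passed the filter on low counts in the oviduct, and 10115 of the genes tested have a gene symbol.

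The animals of both groups were untreated and non-pregnant crossbred gilts (Landrace × Yorkshire), young female pigs of similar age that had already cycled. Tissue was collected by hysterectomy, and the labels of the groups differ only in the day of collection. Whether the groups also differ in a batch of collection or sequencing is not known here. The tissue was oviduct, taken per the study's methods from the ampulla, so each library is a mixture of all its cell types. Poly-A RNA of each sample was sequenced as paired-end reads. It is not stated library by library which gilt a library came from, and the study's methods give fewer gilts per day than there are libraries of day 12, so whether each library of day 12 is a separate animal is not known here and p-values measure the spread between these libraries. A library is named here by its number within its day in the table.

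The oviduct carries the oocyte, the sperm and the early embryo. Its lining is made of ciliated cells, which move the fluid, and of secretory cells, which release oviduct-specific glycoprotein 1 (OVGP1) and other proteins into it, and the lining rests on connective tissue and smooth muscle. Around oestrus the ovarian follicles secrete oestrogen. In the days that follow, the corpora lutea formed at ovulation secrete progesterone, and day 12 lies in that luteal phase of the pig cycle. Both hormones act on the oviduct through nuclear receptors, the oestrogen receptor ESR1 and the progesterone receptor PGR.

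Total counts ranged from 10034096 to 11573086 on day 0 and from 8962103 to 10232078 on day 12. Levels are given as CPM, counts per 1000000 of a library size corrected for composition by edgeR's TMM method, and 3 counts correspond to between 0.273 and 0.344 CPM in these libraries, which covers counting error only. No pair of libraries within a day was identical, and the chi-squared statistic per degree of freedom between pairs was between 17.6 and 73.0. The labelled tissue was checked against markers. The ciliated cell gene FOXJ1, a transcription factor of motile cilia, ranged from 1206 to 1592 CPM on day 0 and from 852 to 1395 CPM on day 12, and the 6 ciliated cell markers found summed to between 2139 and 2681 CPM on day 0 and between 1505 and 2705 CPM on day 12. Of 8 markers of steroid-producing ovarian cells, 5 were found and summed to between 24.1 and 85.8 CPM on day 0 and between 30.5 and 122.7 CPM on day 12, against 520.7 to 15130 CPM in the libraries of the ovary. Of these, FSHR was at or under 3 counts in all 7 libraries, LHCGR did not exceed 1.49 CPM and INHA reached 49.8 CPM in 1 library of day 0. CYP11A1 was at 18.7 to 30.3 CPM on day 0 and at 22.0 to 103.0 CPM on day 12. CYP17A1 was at 1.95 to 7.90 CPM on day 0 and at 0.730 to 18.65 CPM on day 12.

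The composition of the libraries differed between the days. OVGP1 alone took 16.8%, 5.13% and 14.3% of all counts in libraries 1 to 3 of day 0, and 1.27%, 0.387%, 0.946% and 2.91% in libraries 1 to 4 of day 12. The TMM factors were between 0.832 and 0.966 on day 0 and between 1.07 and 1.08 on day 12. Scaling to total counts instead shifts the median log2 fold change of all genes by 0.27, and all changes below are relative to the TMM scale, on which that median is 0.00.

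Of the 15665 genes tested, 2504 (16.0%) were differentially expressed genes (DEGs) between day 12 and day 0 at an adjusted p under 0.05 (quasi-likelihood test of edgeR, p adjusted by the Benjamini-Hochberg method over all genes tested). They were 1131 genes higher on day 12 (7.22% of those tested) and 1373 genes lower (8.76%). Large changes were mostly decreases: 232 DEGs were lower by 8-fold or more and 39 were higher by 8-fold or more, and 939 were lower and 423 higher by more than 2-fold. Every library of day 12 lay beyond every library of day 0 in 1111 of the DEGs that were higher and 1321 of those that were lower, and the days overlapped in 72. Of all genes tested, 19.0% were without overlap in the higher and 18.4% in the lower direction. With scaling to total counts, chosen after seeing the data, 2996 DEGs were higher and 835 lower, so that 78.2% of the calls were increases against 45.2% on the TMM scale. The number of DEGs was 1107 without library 2 of day 0, 1173 without library 3 of day 0, 1363 without library 2 of day 12 and 1509 without library 3 of day 12. In all 7 fits that left out 1 library, 802 of the DEGs were called every time, 315 of them higher and 487 lower.

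**Figure D1:**
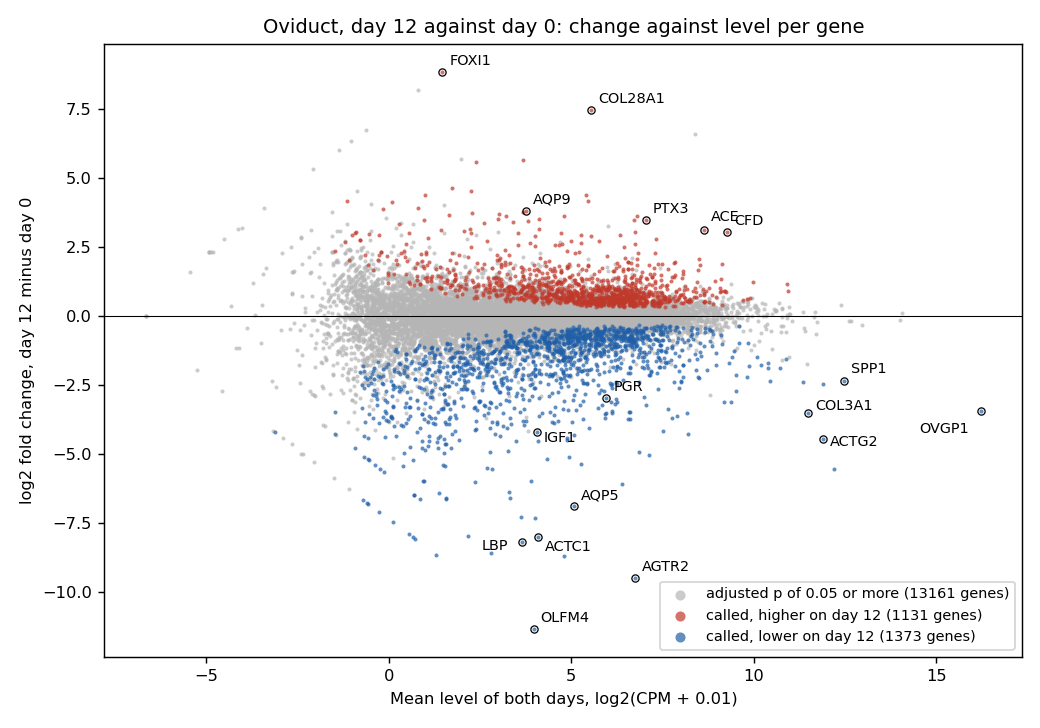
Each point is 1 of the 15665 genes tested, with the mean level of both days on the log2(CPM + 0.01) scale on the horizontal axis and the log2 fold change of day 12 minus day 0 on the vertical axis. Red points are the 1131 DEGs higher on day 12 and blue points the 1373 DEGs lower on day 12; the points furthest from 0 lie mostly below it, and OVGP1 stands alone at the highest level.

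The gene with the largest increase among those with a symbol was FOXI1, a forkhead transcription factor known from ion-transporting epithelial cells. It had no count in the 3 libraries of day 0 and stood at 6.73, 2.40, 9.72 and 3.20 CPM in libraries 1 to 4 of day 12. It was at least 17.5-fold higher on day 12, against a floor of 3 counts per library (adjusted p = 0.00226, edgeR). COL28A1, a gene for a minor collagen chain, measured 0, 0.681 and 0.831 CPM on day 0 and 88.7, 140.0, 88.1 and 53.7 CPM on day 12, without overlap, and its log2 fold change (log2 FC) was 7.44 ± 1.24 (SE, adjusted p = 0.00108, edgeR). PTX3, a secreted pentraxin of innate defence and of matrix assembly, was at 26.7, 17.9 and 21.1 CPM on day 0 and at 187.5, 382.0, 230.9 and 166.9 CPM on day 12 (log2 FC 3.47 ± 0.70, adjusted p = 0.00369, edgeR). Even the lowest library of day 12 was far above the highest of day 0 for this gene. AQP9, a channel for water and glycerol, rose from 2.52, 2.14 and 0.831 CPM to 18.9, 31.5, 28.5 and 22.5 CPM.

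The other 8 of the 12 largest increases were in ST6GALNAC1, a sialyltransferase that acts on O-linked glycans, CATSPERB, a subunit of a sperm calcium channel, the transcription factor MYCN, ALOX15, a lipoxygenase, the transporter ATP13A4, the protease inhibitor-like gene WFDC8, DAPL1 and ACE. Their log2 FC lay between 3.10 for ACE and 4.51 for ST6GALNAC1, and mean levels on day 12 ranged from 708 CPM for ACE to low values for WFDC8, which reached 1.19 to 3.97 CPM. ALOX15 was not called without any 1 of the 3 libraries of day 0 or without library 3 of day 12, with a log2 FC between 3.18 and 3.82 in these 4 fits. DAPL1 was not called without library 1 or 2 of day 0 (log2 FC 3.07 and 2.63) or without library 2 or 4 of day 12 (3.14 and 2.75).

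Among DEGs with a symbol and without overlap between the days, the largest gains in CPM were in TMSB4X, CFD, GAS6, EFTUD2 and ACE. CFD encodes complement factor D, the serine protease that starts the alternative pathway of complement. Its level was 118.4, 143.4 and 141.1 CPM on day 0 and 1351, 1115, 1125 and 806 CPM on day 12, a log2 FC of 3.03 ± 0.32 (adjusted p = 0.000113, edgeR). ACE, the enzyme that converts angiotensin I, was at 85.9, 52.7 and 109.8 CPM on day 0 and at 724, 822, 700.4 and 585 CPM on day 12, a log2 FC of 3.10 ± 0.54 (adjusted p = 0.00134, edgeR). For both genes the days were clearly apart. EFTUD2, a GTPase of the spliceosome, rose by a log2 FC of 1.89 and GAS6, a ligand of receptor tyrosine kinases, by 1.22, and both held in all 7 fits that left out 1 library. TMSB4X, which binds actin monomers, had a log2 FC of 0.90 ± 0.26 (adjusted p = 0.0241, edgeR) and was not called without library 1 or 2 of day 0 (0.82 and 0.81) or without library 1 or 2 of day 12 (0.84 and 0.89).

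The largest decrease was in OLFM4, a secreted glycoprotein of epithelia. It was at 14.4, 36.3 and 43.1 CPM on day 0 and had no count in any library of day 12, so it was at least 108-fold lower (adjusted p = 0.00521, edgeR). AGTR2, a receptor of angiotensin II, was among the most abundant of these genes on day 0, with 175.3, 276.7 and 189.1 CPM, and had 0.636, 0, 0.298 and 0.183 CPM on day 12, 12 counts in all (log2 FC -9.48 ± 1.30, adjusted p = 0.000333, edgeR). ACE rose and AGTR2 fell within the same angiotensin system. AQP5, a water channel of secretory epithelia, was at 76.8, 38.8 and 84.6 CPM on day 0 and at 1.18, 0.418, 0.397 and 0.183 CPM on day 12 (log2 FC -6.89 ± 1.01, adjusted p = 0.000486, edgeR). CHRDL2, an antagonist of bone morphogenetic proteins, went from 28.6, 37.6 and 30.7 CPM to 0.273, 0, 0.298 and 0.183 CPM.

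Some of the largest decreases rest on 1 library of day 0 for their size. LBP, the lipopolysaccharide-binding protein, was at 5.27, 61.8 and 7.48 CPM on day 0, and library 2 held most of its counts. On day 12 LBP had 3 counts in all, and the ratio of day 0 to day 12 was 345, with a counting interval from 117.9 to 1671. Without library 2 of day 0 its log2 FC was -6.22 and it was still called. The receptor gene GRM4 was lowest in that same library, at 43.5, 4.67 and 25.04 CPM on day 0, and was at 0.365 CPM or less on day 12. The 12 largest decreases also included AKAP4, a gene of the sperm tail sheath that had no count on day 12 and was at least 10.1-fold lower, the iodide transporter SLC5A5, with 1 count in all on day 12 and a ratio of 149.5 (counting interval 26.8 to 5906), the keratin KRT73, with 2 counts and a ratio of 107.1 (29.7 to 885), and the muscle genes ACTC1, TNNI1 and MYH13 described below.

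The secretory and surface proteins of the epithelium did not move together. Of 11 genes tested in this list, 3 (27.3% against 8.76% of all genes) were lower on day 12 and 2 (18.2% against 7.22%) were higher. The other 6 were not called, and the median log2 FC was 0.23. OVGP1 was at 193200, 53140 and 172300 CPM in libraries 1 to 3 of day 0 and at 11770, 3620, 8751 and 27190 CPM in libraries 1 to 4 of day 12. All 4 values of day 12 lay below the lowest of day 0, but the spread within each day was wide, and the log2 FC was -3.44 ± 0.99 (adjusted p = 0.0258, edgeR). OVGP1 was not called without library 1 or 3 of day 0 (log2 FC -3.14 and -3.26) or without library 1, 2 or 3 of day 12 (-3.40, -3.13 and -3.30). SPP1, the secreted phosphoprotein osteopontin, was at 11390, 8106 and 9062 CPM on day 0 and at 1957, 2122, 1581 and 1841 CPM on day 12 (log2 FC -2.34 ± 0.61, adjusted p = 0.0165, edgeR). Its libraries lay close together within each day, and the call held in all 7 fits that left out 1 library.

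EPCAM and CLDN4 rose. EPCAM, an adhesion molecule on the surface of epithelial cells in general, was at 409.8, 362.8 and 378.2 CPM on day 0 and at 659, 866, 736 and 584 CPM on day 12 (log2 FC 0.89 ± 0.17, adjusted p = 0.00269, edgeR). CLDN4, a tight junction protein, had a log2 FC of 1.23 ± 0.34 and was not called without library 3 of day 0 (1.03). KRT18, a keratin of simple epithelia, was lower, with a log2 FC of -1.23 ± 0.32 (adjusted p = 0.0162, edgeR), and was not called without library 2 or 3 of day 0 (-1.29 to -1.15 over the 7 fits). Of the markers of mesothelium, the outer covering of the oviduct, 2 of 5 were found. WT1 was at 181.6 to 209.5 CPM on day 0 and at 333.5 to 450.3 CPM on day 12 (log2 FC 0.97, adjusted p = 0.0258, edgeR), and CALB2 was at or under 0.195 CPM in all 7 libraries. Their part in the values of the epithelial genes was not tested. In bulk tissue, fewer cells of a type and less RNA per cell cannot be told apart, here and in all results below.

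Genes of the ciliary machinery changed little. Of 30 genes of the motile cilium that were tested, 0 were higher and 3 were lower on day 12, which is 10% against 16.0% of all genes, and the median log2 FC was -0.27 with values of the other 27 between -0.84 and 0.53. FOXJ1 was at 1441, 1592 and 1206 CPM on day 0 and at 915, 852, 1242 and 1395 CPM on day 12. The days overlapped, and the log2 FC of -0.36 ± 0.19 did not pass the test (adjusted p = 0.194, edgeR). The 3 DEGs were DNAAF1 and RSPH9, an assembly factor of axonemal dyneins and a protein of the radial spokes, and IQCG, and their log2 FC lay between -1.08 and -0.81. None of them was called on scaling to total counts (-0.82, -0.68 and -0.54), and each lost its call in 5 or 6 of the 7 fits that left out 1 library.

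Among 10 tested regulators of multiciliogenesis, the making of many cilia in 1 cell, 2 were lower, where 8.76% of all genes were lower. Leaving out 1 library gave 0 to 1 lower genes in this list. CCNO, a cyclin-like protein that acts in the amplification of centrioles, was at 15.3, 99.96 and 13.8 CPM on day 0 and at 1.36, 4.08, 2.38 and 4.02 CPM on day 12 (log2 FC -3.86 ± 1.18, adjusted p = 0.033, edgeR). Library 2 of day 0 was the highest by far. Without it the log2 FC was -2.29 and CCNO was not called, and it was not called without any 1 of the 4 libraries of day 12 either. GMNC, which starts the multiciliated programme, had a log2 FC of -1.16 and was called in 1 of the 7 fits that left out 1 library (-1.32 to -0.89).

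**Figure D2:**
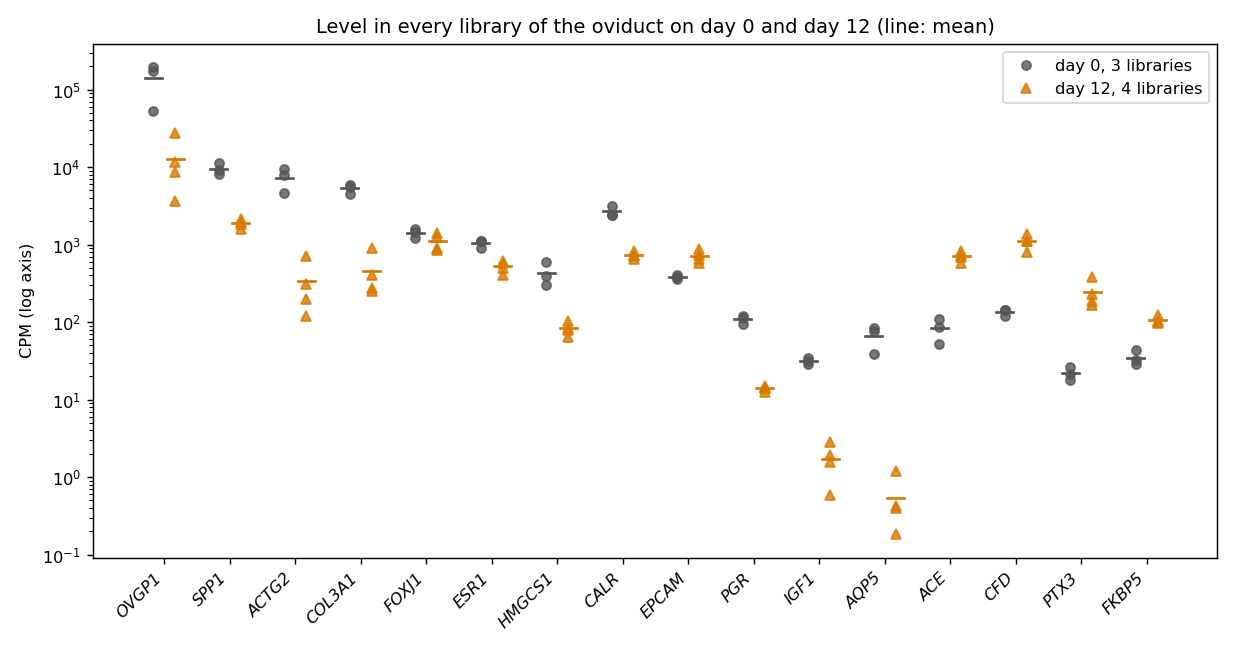
Points are the CPM, on a log axis, of 16 genes in each of the 3 libraries of day 0 (circles) and the 4 libraries of day 12 (triangles), and short lines are the means. The days overlap for FOXJ1 and are apart for the other genes, and the 4 values of PGR on day 12 lie between 12.4 and 14.9 CPM.

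The receptors for both ovarian hormones were lower on day 12. PGR was at 95.5, 120.6 and 114.4 CPM on day 0 and at 12.4, 14.1, 14.3 and 14.9 CPM on day 12, with little spread within either day (log2 FC -2.98 ± 0.53, adjusted p = 0.00168, edgeR). ESR1 was at 1122, 894 and 1106 CPM on day 0 and at 619, 401, 493 and 575 CPM on day 12 (log2 FC -0.99 ± 0.30, adjusted p = 0.031, edgeR). The days did not overlap for ESR1, yet it was not called on scaling to total counts (-0.71), without any 1 library of day 0 (-0.94, -1.09 and -0.95) or without library 2 or 3 of day 12 (-0.89 and -0.97). PGR was called in all of these fits.

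Of 24 tested genes in the list of steroid receptors and known targets, 5 (20.8%) were lower and 3 (12.5%) were higher. Of all genes, 8.76% were lower and 7.22% higher. The median log2 FC of the list was -0.24. FKBP5 and FKBP4 are co-chaperones of steroid receptors and moved in opposite directions. FKBP5 was at 43.3, 32.6 and 28.6 CPM on day 0 and at 96.5, 123.9, 104.5 and 100.2 CPM on day 12 (log2 FC 1.61 ± 0.40, adjusted p = 0.0121, edgeR), and was not called without library 2 or 3 of day 0 (1.58 and 1.49). FKBP4 fell from 1568, 1622 and 1596 CPM to 470, 525, 714 and 557 CPM (log2 FC -1.49 ± 0.31, adjusted p = 0.00447, edgeR) and held in all 7 fits. FOXO1, a transcription factor under insulin control, was higher by a log2 FC of 0.94 and lost its call without library 2 or 3 of day 0 (0.79 and 1.03). The other DEGs of the list were PGRMC2, higher by 0.42, and STC1 and PDZK1, with log2 FC of -2.44 and -3.31. PGRMC2 and PDZK1 lost their calls in 5 and 6 of the 7 fits that left out 1 library (0.38 to 0.48 and -3.93 to -2.61), and STC1 without library 1 of day 0 (-1.99). Without any 1 library of day 0, or without library 2 or 3 of day 12, 3 genes of the list were lower, and without library 2 of day 0 none was higher.

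Cholesterol synthesis was the list with the highest share of decreases. Of 21 tested genes, 17 (81.0%) were lower on day 12 against 8.76% of all genes, 1 was higher and 3 were not called, and the median log2 FC was -1.22. HMGCS1, an early enzyme of the pathway, was at 301.5, 598 and 389 CPM on day 0 and at 65.0, 80.0, 104.5 and 82.8 CPM on day 12 (log2 FC -2.37 ± 0.41, adjusted p = 0.00131, edgeR). SQLE, the squalene epoxidase, was at 44.2, 82.5 and 68.4 CPM on day 0 and at 15.1, 13.3, 10.6 and 12.9 CPM on day 12 (log2 FC -2.33 ± 0.45, adjusted p = 0.00277, edgeR). Every library of day 12 lay below every library of day 0 for both enzymes. FDPS, which makes farnesyl diphosphate, had a log2 FC of -2.07.

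Regulators of sterol synthesis were lower as well. INSIG1, which holds the sterol sensor in the endoplasmic reticulum, had a log2 FC of -1.95 and SREBF2, the transcription factor of the pathway, -1.17. TM7SF2, a sterol C14 reductase, was the exception in the other direction, with 74.1, 97.3 and 74.9 CPM on day 0 and 165.1, 233.5, 214.3 and 247.3 CPM on day 12 (log2 FC 1.39 ± 0.28, adjusted p = 0.00379, edgeR). In the fits that left out 1 library, 15 to 17 genes of the list were lower and TM7SF2 was higher each time.

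Steroid metabolism in the wider sense had a smaller share of decreases than cholesterol synthesis. Of 13 tested genes, 3 were lower (23.1% against 8.76% of all genes) and 0 higher, and the median log2 FC was 0.19. HSD17B11, a 17-beta-hydroxysteroid dehydrogenase of lipid droplets, was at 8.47, 27.6 and 28.1 CPM on day 0 and at 3.54, 2.93, 3.47 and 3.92 CPM on day 12 (log2 FC -2.62 ± 0.47, adjusted p = 0.00162, edgeR). Its relatives HSD17B12 and HSD17B4 had log2 FC of -0.58 and -0.73. Neither was called on scaling to total counts (-0.31 and -0.46), and HSD17B4 lost its call in each fit that left out 1 library (-0.78 to -0.66).

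Genes of the connective tissue matrix were lower on day 12. Of 41 tested genes for fibrillar collagens and other matrix proteins, 20 (48.8% against 8.76% of all genes) were lower and 3 (7.32% against 7.22%) were higher. The median log2 FC was -1.36. COL3A1, the chain of type III collagen, was at 5513, 4453 and 5912 CPM on day 0 and at 906, 274.9, 405.1 and 254.8 CPM on day 12 (log2 FC -3.52 ± 0.62, adjusted p = 0.00154, edgeR). COL1A2, a chain of type I collagen, was at 1063, 982 and 1089 CPM on day 0 and at 230.7, 79.6, 115.4 and 59.5 CPM on day 12 (log2 FC -3.11 ± 0.58, adjusted p = 0.00225, edgeR). Library 1 was the highest of day 12 for both genes and still lay well below day 0. The proteoglycan VCAN fell by 2.92 ± 0.44 on the log2 scale and PCOLCE, an enhancer of procollagen cleavage, by 1.86 ± 0.24. CPXM1 and HAPLN3, a hyaluronan link protein, had log2 FC of -3.03 and -2.85.

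Not all matrix genes fell. FBLN5, a fibulin of elastic fibres, was at 70.1, 55.6 and 66.8 CPM on day 0 and at 128.8, 245.8, 141.3 and 187.6 CPM on day 12 (log2 FC 1.46 ± 0.37, adjusted p = 0.0132, edgeR), while its relative FBLN2 had a log2 FC of -3.51 and elastin (ELN) -2.39. P4HA1, a prolyl hydroxylase of collagen, was higher by 0.81 ± 0.20 and COL5A3, a minor chain of type V collagen, by 1.04 ± 0.35. FBLN5 and P4HA1 were not called without library 2 of day 0 (1.37 and 0.77), and COL5A3 was not called without any 1 of the 7 libraries (0.89 to 1.13). In those fits 18 to 22 genes of the list were lower.

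Matrix-cutting enzymes and the basement membrane showed the same direction in fewer genes. Of 21 tested proteases and inhibitors, 7 were lower (33.3% against 8.76% of all genes) and 0 higher. Among the 7 was MMP2, a gelatinase, at 474, 337.4 and 507 CPM on day 0 and at 194.9, 53.6, 88.5 and 44.5 CPM on day 12 (log2 FC -2.20 ± 0.49, adjusted p = 0.00661, edgeR). ADAMTS2 and ADAMTS14, which cleave procollagen, had log2 FC of -2.47 and -2.27. MMP14, a membrane-bound protease, was at 220.5, 192.5 and 250.0 CPM on day 0 and at 199.8, 204.4, 198.7 and 146.6 CPM on day 12 and was not called (log2 FC -0.24 ± 0.18, adjusted p = 0.374, edgeR, and 0.05 on scaling to total counts). Of 29 genes of basement membrane and integrins, 8 (27.6% against 8.76% of all genes) were lower and 1 (3.45% against 7.22%) was higher. They included COL4A2 (log2 FC -2.13 ± 0.54), the laminin chain LAMB1 (-1.34 ± 0.28), and ITGA5 (-1.95 ± 0.50), part of the fibronectin receptor. ITGA2, part of a collagen receptor, was higher by 0.68 ± 0.19. ITGA5 lost its call without library 2 of day 0 (-1.87) and ITGA2 without any 1 library of day 0 or library 1 of day 12 (0.61 to 0.75 over the 7 fits). Without library 2 of day 0, 2 of these 29 genes were lower, and in the other fits 4 to 9.

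Of the 5 fibroblast markers found, 3 were lower on day 12 and 0 higher, where 8.76% of all genes were lower. The summed level of the 5 fibroblast markers found was 7729, 6000 and 8103 CPM on day 0 and 1860, 733, 866 and 764 CPM on day 12. COL3A1, COL1A2, LUM and DCN are themselves among these markers and members of the matrix list. LUM, a matrix proteoglycan, was the marker called besides COL3A1 and COL1A2 (log2 FC -1.76, adjusted p = 0.0017, edgeR). PDGFRA and DCN, which also mark fibroblasts, were not called, with log2 FC of -0.22 and -0.58. The part of cell composition in the decrease of the matrix genes was not tested.

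**Figure D3:**
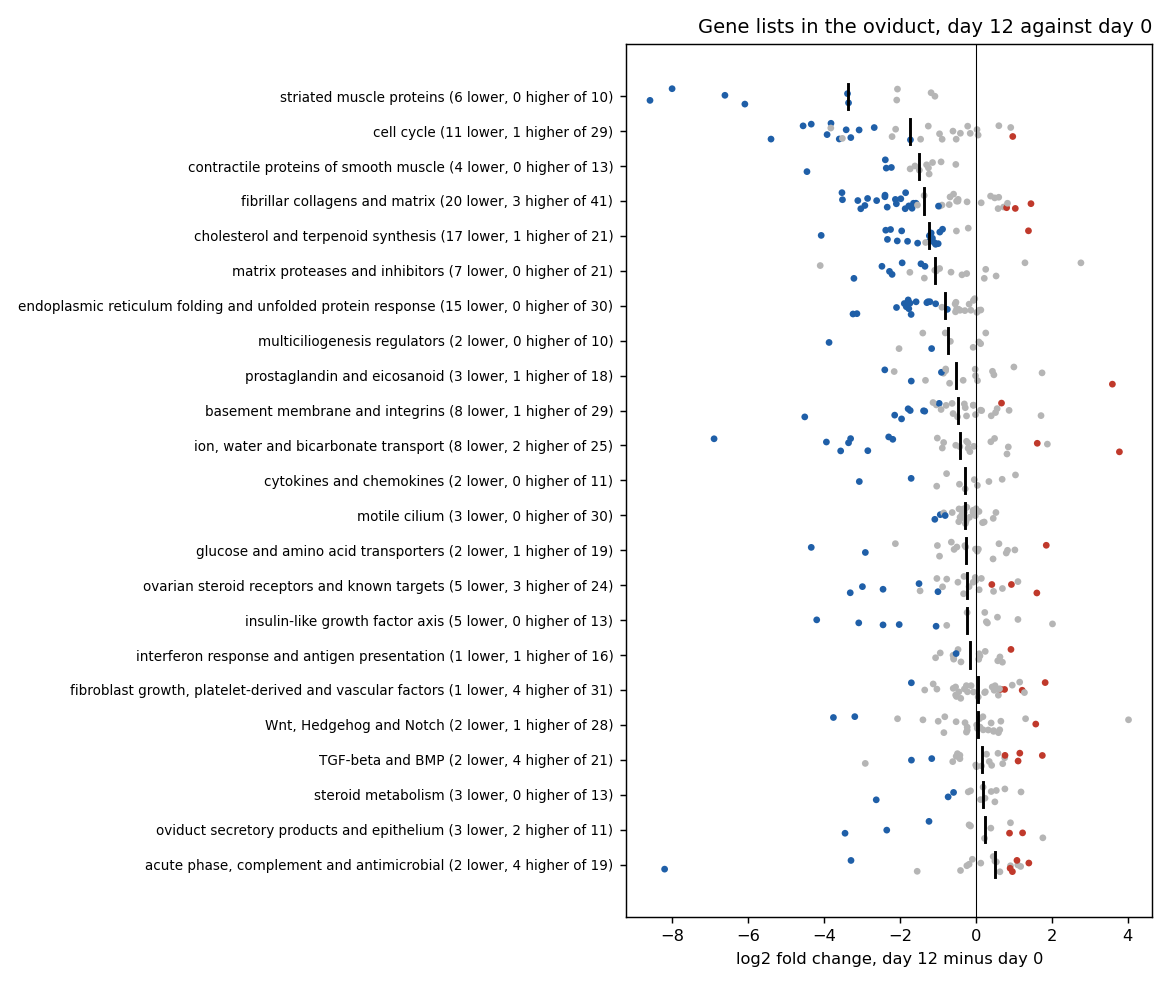
Each point is a tested member of 1 of 23 gene lists, placed by its log2 fold change of day 12 minus day 0, with DEGs in red (higher) and blue (lower), other genes in grey and the median of the list as a black line. The medians range from -3.36 for striated muscle proteins to 0.51 for acute phase, complement and antimicrobial genes.

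Contractile proteins of smooth muscle were below 0 in all 13 tested members, and the median log2 FC was -1.49. Of these members, 4 were DEGs (30.8% against 8.76% of all genes lower). ACTG2, the gamma actin of smooth muscle, was at 4616, 9348 and 7910 CPM on day 0 and at 708, 120.6, 308.8 and 200.7 CPM on day 12 (log2 FC -4.45 ± 0.88, adjusted p = 0.00342, edgeR). ACTA2, the alpha actin, was at 3056, 5516 and 4515 CPM on day 0 and at 1618, 367.7, 885 and 478 CPM on day 12 (log2 FC -2.38 ± 0.78, adjusted p = 0.0445, edgeR). ACTG2 and the tropomyosin TPM1 (log2 FC -2.36 ± 0.54) held in all 7 fits that left out 1 library, whereas ACTA2 held in 1 of them and the calponin CNN1 (-2.22 ± 0.65) in 2. MYH11, the smooth muscle myosin heavy chain, was at 1181, 1447 and 1477 CPM on day 0 and at 1278, 206.5, 520.0 and 334.1 CPM on day 12. It overlapped between the days and was not called (log2 FC -1.23 ± 0.65, adjusted p = 0.208, edgeR).

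Library 1 of day 12 was the highest of its day in ACTG2, ACTA2, TPM1, CNN1 and MYH11. The summed level of the 5 smooth muscle markers found was 13320, 22610 and 20710 CPM on day 0 and 7116, 1315, 3009 and 2134 CPM on day 12. These markers are also members of the contractile list, and the part of muscle content in the samples was not tested. Without library 1 of day 12, 8 of the 13 genes were lower, without library 1 of day 0 there were 3, and without any other library 2. ACTA2 then ranged from -2.92 to -2.13 and CNN1 from -2.86 to -1.97 on the log2 FC scale.

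Of 10 tested striated muscle proteins, 6 were lower on day 12 and 0 higher, where 8.76% of all genes were lower. The median log2 FC was -3.36. The other 4 were not called, with log2 FC between -2.08 and -1.08. Leaving out 1 library gave 5 to 7 lower genes in this list. TNNI1, the troponin I of slow muscle, was at 14.1, 14.9 and 30.7 CPM on day 0 and at 0.363, 0.209, 0.0992 and 0.0913 CPM on day 12 (log2 FC -6.61 ± 0.81, adjusted p = 0.000192, edgeR). MYH13, a myosin heavy chain, was at 280.4, 49.2 and 166.6 CPM on day 0 and at 3.00, 1.25, 2.48 and 2.92 CPM on day 12. ACTC1, the cardiac actin, was at 7.67, 80.3 and 13.3 CPM on day 0 and had 5 counts in all on day 12. Library 2 of day 0 was the highest for ACTC1 and the lowest for MYH13. Actins are nearly identical in sequence, as are myosin heavy chains, and reads could have been divided between the copies, so the values of ACTA1, ACTA2, ACTC1, ACTG2 and MYH13 are uncertain. The 3 skeletal muscle markers found, ACTA1, TNNI1 and TNNT1, summed to 15.3, 28.9 and 61.7 CPM on day 0 and to 1.27, 0.418, 0.397 and 0.274 CPM on day 12, and their part in these decreases was not tested.

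Genes for protein folding in the endoplasmic reticulum were lower on day 12 in 15 of 30 tested members (50.0% against 8.76% of all genes). In this list 0 were higher, and the median log2 FC was -0.82. CALR, the chaperone calreticulin, was at 2426, 2424 and 3179 CPM on day 0 and at 644, 739, 814 and 707 CPM on day 12 (log2 FC -1.88 ± 0.33, adjusted p = 0.00145, edgeR). HSPA5, the main HSP70 chaperone of this compartment, was at 1450, 1805 and 2186 CPM on day 0 and at 530, 508, 631 and 469 CPM on day 12 (log2 FC -1.76 ± 0.37, adjusted p = 0.00497, edgeR). The days were apart for both. CRELD2, a secreted protein of the unfolded protein response, was at 129.5, 295.0 and 297.6 CPM on day 0 and at 22.3, 24.98, 31.3 and 23.8 CPM on day 12, the largest decrease of the list (log2 FC -3.23 ± 0.62, adjusted p = 0.00287, edgeR).

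The co-chaperone DNAJB11 had a log2 FC of -2.09 ± 0.38 and HYOU1 one of -1.78 ± 0.36. The protein disulphide isomerases PDIA3, PDIA4 and PDIA6 had log2 FC of -1.70, -1.83 and -1.29, and the transcription factors CREB3L1 and CREB3L4 -1.73 and -3.13. PDIA6 lost its call in 4 of the 7 fits that left out 1 library (-1.51 to -1.07), and CREB3L1 without library 2 of day 0 (-2.13 to -1.56 over the 7 fits). HSP90B1 was at 2014, 2594 and 3831 CPM on day 0 and at 932, 952, 1121 and 782 CPM on day 12 and was not called without library 3 of day 0 (log2 FC -1.28). In the fits that left out 1 library, 10 to 14 of the 30 genes were lower. Against the same day 0 libraries, 14 genes of the list were lower on day 9 (4.05% of all genes) and 11 on day 6 (1.48% of all genes).

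Genes of cell division were lower on day 12, and the size of this rests on library 2 of day 0. Of 29 tested genes, 11 (37.9% against 8.76% of all genes) were lower and 1 (3.45% against 7.22%) was higher, with a median log2 FC of -1.72. TOP2A, the topoisomerase of dividing cells, was at 16.6, 126.9 and 22.0 CPM on day 0 and at 7.18, 3.34, 4.26 and 5.84 CPM on day 12 (log2 FC -3.41 ± 1.09, adjusted p = 0.0404, edgeR). CDK1, the kinase of entry into mitosis, was at 5.72, 34.1 and 7.17 CPM on day 0 and at 0.727, 0.627, 0.794 and 0.913 CPM on day 12 (log2 FC -4.33 ± 1.195, adjusted p = 0.0212, edgeR). PLK1, another mitotic kinase, was at 9.16, 34.8 and 8.94 CPM on day 0 and at 2.64, 1.99, 1.98 and 1.73 CPM on day 12. For these 3 genes the days did not overlap, and library 2 stood far above the other libraries of day 0.

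Without library 2 of day 0 none of the 29 genes was called lower and the median log2 FC was -1.25; CDK1 then had a log2 FC of -3.04, TOP2A -1.89 and PLK1 -2.10. Without library 3 of day 0, 6 genes were lower, and without libraries 1, 2, 3 or 4 of day 12 the number was 4, 1, 2 and 4. The transcription factor E2F1 varied less on day 0, with 11.7, 15.0 and 14.2 CPM, against 5.18, 2.51, 3.87 and 4.93 CPM on day 12 (log2 FC -1.72 ± 0.45, adjusted p = 0.0164, edgeR), and lost its call without library 2 or 3 of day 0 (-1.64 and -1.69) or library 2 of day 12 (-1.55). CDC45, a helicase component of DNA replication, was the gene that rose, from 15.0, 18.8 and 15.3 CPM to 31.1, 33.6, 37.3 and 26.6 CPM (log2 FC 0.98 ± 0.24, adjusted p = 0.0118, edgeR), and was not called without library 3 of day 0 (0.93).

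Transporters and channels for ions and water moved in both directions. Of 25 tested genes, 8 (32.0% against 8.76% of all genes) were lower and 2 (8.0% against 7.22%) were higher. AQP5 and AQP9, both described above, are water channels that went opposite ways. CA12, a carbonic anhydrase of the cell surface, was at 27.9, 23.1 and 22.3 CPM on day 0 and at 1.54, 3.03, 1.09 and 0.730 CPM on day 12 (log2 FC -3.93 ± 0.73, adjusted p = 0.00225, edgeR). SCNN1A, the alpha subunit of the epithelial sodium channel, was at 43.9, 38.1 and 44.4 CPM on day 0 and at 112.8, 153.9, 138.2 and 113.1 CPM on day 12 (log2 FC 1.62 ± 0.48, adjusted p = 0.0286, edgeR).

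The beta and gamma subunits of the same channel, SCNN1B and SCNN1G, were lower, with log2 FC of -3.30 and -2.84. All 3 subunits lost their calls without library 2 or 3 of day 0 or library 2 or 3 of day 12, when SCNN1A had a log2 FC of 1.53 to 1.66, and SCNN1A also without library 1 of day 0 (1.65). CFTR, the chloride and bicarbonate channel, was at 37.2, 37.7 and 40.4 CPM on day 0 and at 41.0, 78.6, 53.0 and 44.4 CPM on day 12 and was not called (log2 FC 0.50 ± 0.33, adjusted p = 0.31, edgeR). The calcium-activated chloride channels ANO1 and BEST1 were lower by log2 FC of -2.18 and -2.29, and the potassium channel subunit KCNG1 by -3.56. ANO1 lost its call without library 2 or 3 of day 0 or library 2 of day 12 (-2.69 to -1.93 over the 7 fits). Without library 2 or 3 of day 0, 5 genes of the list were lower. Among 19 carriers of glucose and amino acids, 3 were called, 15.8% against 16.0% of all genes. SLC2A8 and SLC38A4 were lower (-2.91 ± 0.35 and -4.33 ± 0.67) and SLC1A1, a glutamate carrier, was higher (1.86 ± 0.47) and lost its call without library 2 or 3 of day 0 (1.72 to 2.15 over the 7 fits).

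Several secreted growth regulators were lower. Of 13 tested genes of the insulin-like growth factor axis, 5 were lower (38.5% against 8.76% of all genes) and 0 higher. IGF1 was at 31.6, 34.1 and 28.8 CPM on day 0 and at 1.91, 2.82, 0.595 and 1.55 CPM on day 12 (log2 FC -4.19 ± 0.74, adjusted p = 0.00154, edgeR). PAPPA2, a protease that frees it from binding proteins, was at 31.8, 48.2 and 68.5 CPM on day 0 and at 3.82, 6.27, 6.05 and 7.21 CPM on day 12 (log2 FC -3.08 ± 0.45, adjusted p = 0.000452, edgeR). Both were apart between the days in every library, and both calls held in all 7 fits that left out 1 library. Of the other 3, IGFBP6 and IGFBP7 lost their calls in 5 and 6 of these fits (-2.27 to -1.79 and -1.28 to -0.84). Without library 1 of day 0, 2 genes of the list were lower.

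In the list of Wnt, Hedgehog and Notch genes, 3 of 28 (10.7% against 16.0% of all genes) were called, and each held in all 7 fits. The ligand WNT2 was at 207.9, 86.0 and 228.6 CPM on day 0 and at 19.4, 11.8, 7.84 and 12.7 CPM on day 12 (log2 FC -3.75 ± 0.53, adjusted p = 0.000401, edgeR). SFRP1, a secreted antagonist of Wnt ligands, fell from 105.0, 123.8 and 170.1 CPM to 23.1, 14.1, 10.1 and 11.0 CPM, whereas DLL1, a Notch ligand, was higher by a log2 FC of 1.58 ± 0.35. WNT2B, a relative of WNT2, had a log2 FC of 0.33 and overlapped between the days.

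Of 21 genes of the TGF-beta pathway, 4 (19.0% against 7.22% of all genes) were higher and 2 (9.52% against 8.76%) were lower. The higher ones were the receptor TGFBR1 (log2 FC 1.16 ± 0.21), the inhibitory SMAD6 and SMAD7 (1.75 ± 0.33 and 0.77 ± 0.19) and the ligand TGFB2 (1.12 ± 0.31). SMAD6 was at 3.78, 3.41 and 4.26 CPM on day 0 and at 15.7, 12.5, 11.8 and 11.5 CPM on day 12, with no overlap. LTBP1, which stores the latent ligand in the matrix, was lower (-1.69 ± 0.40), as was ID2, which lost its call in 5 of the 7 fits that left out 1 library (-1.45 to -0.76). SMAD7 lost its call without library 2 of day 0 (0.71), and TGFB2 without library 1 or 2 of day 0 (1.04 and 0.97) or library 1 of day 12 (0.95). Without library 1 of day 12, 3 genes of the list were higher and 3 lower, and without library 2 of day 0, 2 were higher and 1 was lower.

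Among 31 genes of fibroblast, platelet-derived and vascular growth factors, 4 were higher and 1 was lower, which is 16.1% called against 16.0% of all genes. MET, the receptor of hepatocyte growth factor, was at 76.3, 46.8 and 63.1 CPM on day 0 and at 219.8, 197.5, 221.2 and 243.2 CPM on day 12 (log2 FC 1.83 ± 0.24, adjusted p = 0.000274, edgeR). The ligand PDGFA rose from 12.9, 13.7 and 10.7 CPM to 30.2, 32.1, 27.7 and 26.6 CPM (log2 FC 1.22 ± 0.20, adjusted p = 0.000883, edgeR). PDGFC and VEGFA were higher by 0.66 and 0.76, and lost their calls in 7 and in 5 of the 7 fits that left out 1 library. The 2 endothelial markers found, PECAM1 and KDR, summed to 171.9 to 229.8 CPM on day 0 and to 148.2 to 203.2 CPM on day 12, and neither was called.

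Genes of innate defence were split. Of 19 tested acute phase, complement and antimicrobial genes, 4 (21.1% against 7.22% of all genes) were higher and 2 (10.5% against 8.76%) were lower. The median log2 FC of 0.51 was the highest of the 23 lists. CFI, the complement regulator factor I, was at 293.7, 265.2 and 239.0 CPM on day 0 and at 563, 660, 494 and 361.2 CPM on day 12 (log2 FC 0.97 ± 0.30, adjusted p = 0.0365, edgeR). The other increases were in the beta-defensin DEFB1 (1.40 ± 0.45), which overlapped between the days, and in the pattern receptors TLR2 and TLR4 (1.09 ± 0.36 and 0.91 ± 0.27). The 4 increases lost their calls in 3 to 7 of the fits that left out 1 library, and without library 2 of day 0 none was called. The decreases of LBP and of the complement component C5, at 31.7, 79.4 and 16.1 CPM on day 0 and at 3.45, 3.55, 6.45 and 3.92 CPM on day 12 (log2 FC -3.29 ± 0.71), held in all 7. C3, the central complement protein, ranged from 102.0 to 741 CPM on day 0 alone and was not called (log2 FC 0.64 ± 0.95).

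Of 11 cytokines and chemokines, 2 were lower (18.2% against 8.76% of all genes), CXCL14 and TNFSF13B, and the second was called in 1 of the 7 fits that left out 1 library (log2 FC -2.07 to -1.36). CXCL14 was at 8.36, 16.6 and 188.5 CPM on day 0 and at 6.36, 8.46, 12.0 and 7.12 CPM on day 12, so library 3 alone set it apart, and without that library the log2 FC was -0.56 and CXCL14 was not called. Of 16 interferon and antigen presentation genes, 2 were called (12.5% against 16.0% of all genes). IRF1 was higher, from 49.2, 52.1 and 54.3 CPM to 86.2, 108.5, 97.3 and 102.8 CPM (log2 FC 0.93 ± 0.19, adjusted p = 0.00433, edgeR), and USP18 was lower (-0.52 ± 0.17) with its call lost in 5 of the 7 fits that left out 1 library (-0.63 to -0.40). The 4 T cell markers found summed to 7.44 to 9.73 CPM on day 0 and to 12.7 to 27.8 CPM on day 12, and none was called. The 4 macrophage markers summed to 18.2 to 26.3 CPM and to 17.7 to 19.6 CPM.

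In the list of prostaglandin and eicosanoid genes, 3 of 18 were lower and 1, ALOX15, was higher, which is 22.2% called against 16.0% of all genes. PTGS2, the inducible cyclooxygenase, was at 1.72, 6.91 and 8.0 CPM on day 0 and at 1.82, 0.836, 0.595 and 0.913 CPM on day 12, which overlap (log2 FC -2.40 ± 0.66, adjusted p = 0.0214, edgeR), and it was not called without library 2 or 3 of day 0 (-2.20 and -2.04) or library 2 or 3 of day 12 (-2.31 and -2.21). LTA4H, an enzyme of leukotriene synthesis, was lower by -0.90 ± 0.19 and held in all 7 fits. The prostaglandin carrier SLCO2A1 had a log2 FC of -1.70 ± 0.51 and lost its call in 5 of them (-1.90 to -1.43). PTGS1, the constitutive cyclooxygenase, was not called (0.44 ± 0.49).

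Day 12 was next placed among the other days. Against the same 3 libraries of day 0, day 3 gave 47 DEGs (0.3%), day 6 gave 339 (2.16%) and day 9 gave 1144 (7.3%). Day 12 gave 2504 and was picked for that, day 15 gave 908 (5.8%) and day 18 gave 36 (0.23%). Day 6 has 2 libraries, days 12 and 15 have 4 and the other days 3, so the counts are not of equal power. The genes higher on day 12 had a median log2 FC of 0.85 on that day, after 0.36, 0.59 and 0.68 at the 3 earlier times and before 0.54 and 0.23 at the later ones. The genes lower on day 12 had medians of -0.60, -1.02, -1.13, -1.44, -0.86 and -0.40 in the same order of time. All of these contrasts share the day 0 libraries, and the genes were chosen on day 12, so these medians are a description.

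Single genes differed in when they reached their level of day 12. PGR was at 38.6 ± 34.3 CPM on day 3 (SD, n = 3) and had reached 13.1 ± 1.80 CPM by day 6 (n = 2). It then measured 15.2 ± 3.45 CPM on day 9 (n = 3), 13.9 ± 1.08 CPM on day 12 (n = 4) and, at the end of the cycle on day 18, 123.1 ± 62.2 CPM (n = 3). OVGP1 was at 145200 ± 118100 CPM on day 3, with a spread nearly as wide as the mean, and at 4501 ± 3119 CPM on day 9. CFD had means of 178.0 ± 43.5, 393.1 ± 19.97, 572 ± 118 and 1099 ± 223.7 CPM on days 3, 6, 9 and 12, and 458 ± 202.6 CPM on day 18. ACE had its highest mean on day 12 as well, with 708 ± 97.3 CPM against 445.2 ± 77.7 CPM on day 9.

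**Figure D4:**
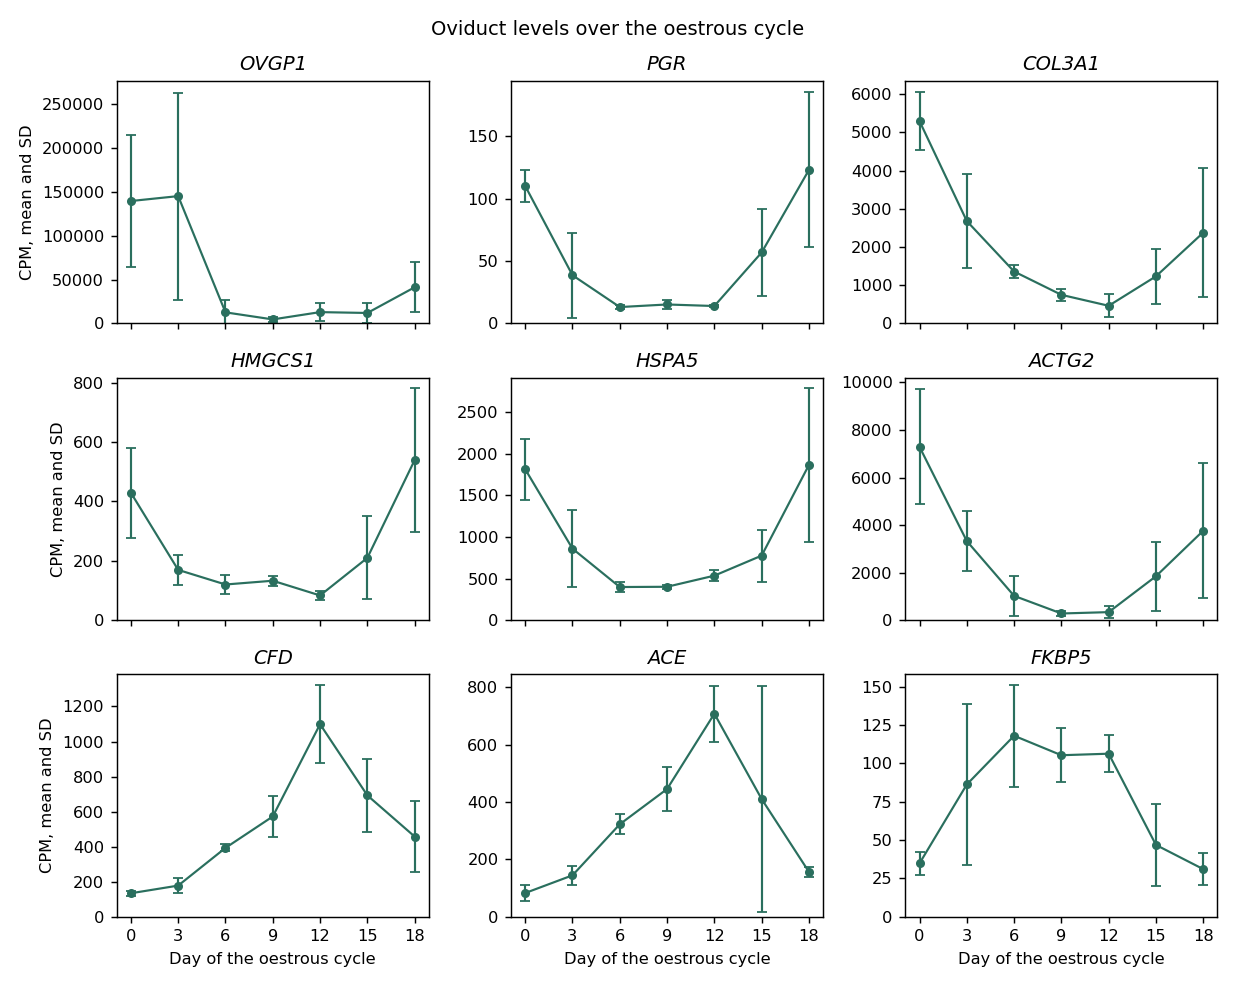
Each panel gives the mean CPM of 1 gene in the oviduct on each of the 7 days sampled, with the SD over the 2 to 4 libraries of a day as bars and the axis starting at 0, below which bars are not drawn. OVGP1, PGR, COL3A1, HMGCS1, HSPA5 and ACTG2 have lower means on days 6, 9 and 12 than on day 0, CFD and ACE have their highest mean on day 12, and FKBP5 has similar means on days 6, 9 and 12.

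A direct test of day 12 against day 9 called 4 genes, 0.0255% of those tested, and 664 genes had an unadjusted p under 0.05. DESeq2 called 27, these 4 among them. The fit of the 2 days alone called 1 gene, which is not among the 4, a block by column number called 0 (755 genes had an unadjusted p under 0.05), and the fits that left out 1 library called between 0 and 10. All 4 were lower on day 12. SCARB1, the receptor that takes up cholesterol from HDL, was at 275.1, 157.9 and 237.0 CPM on day 9 and at 47.9, 82.8, 107.4 and 65.2 CPM on day 12 (log2 FC -1.56 ± 0.25, adjusted p = 0.0353, edgeR). Its levels on day 0 were 115.1, 126.6 and 134.2 CPM, so day 9 was the high day, and day 12 against day 0 gave a log2 FC of -0.73 that did not pass the test (adjusted p = 0.0552, edgeR). GFPT2, an enzyme of hexosamine synthesis, was at 33.0, 13.9 and 15.6 CPM on day 9 and at 3.54, 2.72, 3.37 and 5.75 CPM on day 12. RHCG, an ammonia transporter, and ENSSSCG00000005755, a gene without a symbol, were at 0.606 to 8.37 CPM on day 9 and had 3 counts and 1 count in all on day 12. No gene was called without library 1 or 3 of day 9 or without library 1, 2 or 4 of day 12, 1 gene was called without library 3 of day 12, and 10 were called without library 2 of day 9.

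The change from day 0 to day 12 was then set against the same change in the other tissues of the series, with a test of the difference itself over all 66 libraries. Between oviduct and endometrium, 1497 of 16934 genes (8.84%) differed, 550 with a more positive (3.25%) and 947 with a more negative change in the oviduct. Between oviduct and ovary, 3330 genes (19.7%) differed, 1554 (9.18%) and 1776 in these directions. Of the 1131 genes that rose in the oviduct, 256 had a more positive change there than in the endometrium by this test, and 6 a more negative one. Against the ovary these numbers were 554 and 9. Of the 1373 genes that fell, 402 and 656 had a more negative change in the oviduct, and 0 and 1 a more positive one. These genes were chosen on the same oviduct libraries that enter the test, which favours the direction of the oviduct. The counts are therefore a description. Per the study's methods, ovary, endometrium and oviduct were collected from the gilts of each day, so libraries of different tissues can share a gilt. The labels do not give which ones do, so no animal term was used and the test leaves out any such pairing. A block by column number gave 1655 and 3360 genes.

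Cholesterol synthesis had the highest share of genes whose change differed by tissue among the 23 lists. The median log2 FC of its 21 genes was -1.22 in the oviduct, 1.30 in the endometrium and 2.49 in the ovary, and the change was more negative in the oviduct in 12 of 21 genes against the endometrium (5.59% of all genes) and in 19 of 21 against the ovary (10.5% of all genes). In the endoplasmic reticulum list, 9 and 16 of 30 genes had a more negative change in the oviduct than in the endometrium and ovary, and in the matrix list 11 and 14 of 42. For the motile cilium, 0 of 30 genes differed from the endometrium (8.84% of all genes). The median log2 FC of these genes was -1.08 in the endometrium and -0.27 in the oviduct. In the fits of each tissue, 17 of the 30 were lower in the endometrium and 3 in the oviduct. In simulated counts this difference test recovered 15 of 100 genes changed by 2-fold, so 0 called does not show equal change. Of 20 acute phase and complement genes, 6 had a more positive change in the oviduct than in the endometrium (3.25% of all genes). In 1 it was more negative (5.59% of all genes).

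Individual genes went opposite ways in different tissues. CDH17, a cadherin of epithelia, was at 6.07, 5.45 and 5.61 CPM on day 0 in the oviduct and at 0.209 CPM or less on day 12, while in the endometrium it went from 2.24 ± 0.91 CPM (SD, n = 3) to 112.3 ± 41.6 CPM (n = 3), a difference in log2 FC of -11.06 ± 1.30 (adjusted p = 1.59e-07, edgeR). MYC, a transcription factor of growth, was at 38.2, 47.2 and 41.6 CPM on day 0 and at 154.3, 182.3, 171.4 and 123.0 CPM on day 12 in the oviduct, and in the endometrium it went from 161.9 ± 13.7 to 30.3 ± 7.11 CPM. CDC25B, a phosphatase of the cell cycle, rose in the oviduct from 31.1, 53.6 and 33.6 CPM to 189.1, 195.6, 187.1 and 184.5 CPM and went from 48.9 ± 5.27 to 21.8 ± 5.01 CPM in the endometrium. The differences in log2 FC were 4.33 ± 0.72 for MYC and 3.44 ± 0.54 for CDC25B.

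SLC2A8, a glucose transporter of internal membranes, was at 16.7, 16.7 and 25.4 CPM on day 0 and at 3.00, 1.78, 3.08 and 2.56 CPM on day 12 in the oviduct. In the endometrium it went from 17.4 ± 5.05 to 138.3 ± 31.9 CPM, so that the difference in log2 FC was -5.88 ± 0.60 (adjusted p = 9.02e-09, edgeR). Malate dehydrogenase MDH1 differed in the same direction (-3.21 ± 0.36) and CFI in the other (3.85 ± 0.61). Against the ovary, the genes named have the lowest p in each direction among DEGs of the oviduct with a symbol, not among all genes that differed. ERMP1, a metallopeptidase of the endoplasmic reticulum (-4.16 ± 0.47), NNT, a transhydrogenase of mitochondria (-2.57 ± 0.29), and INPP4A, a lipid phosphatase (-2.87 ± 0.34), had a more negative change in the oviduct. LRCH4 (1.80 ± 0.27), ADAM15, a membrane-bound metalloprotease (1.95 ± 0.31), and CFD (4.81 ± 0.79) had a more positive one.

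**Figure D5:**
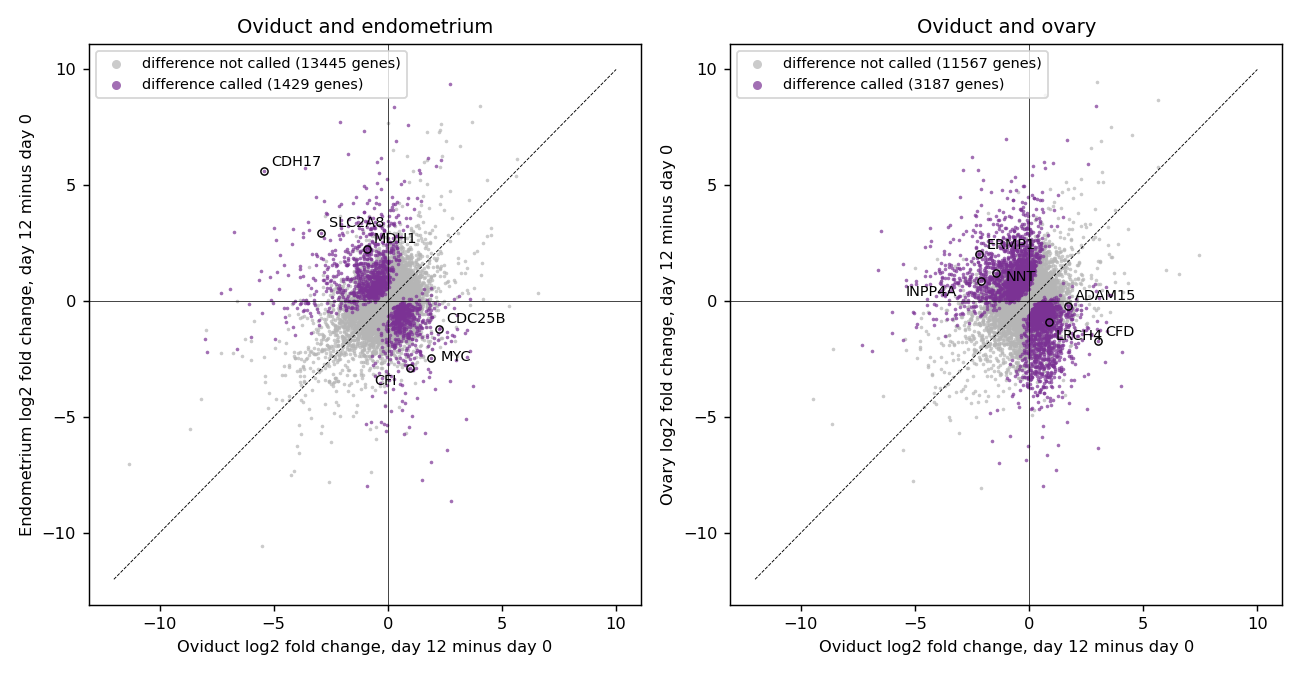
Points are genes, with the log2 fold change of day 12 minus day 0 in the oviduct on the horizontal axis and in the endometrium (left) or ovary (right) on the vertical axis, each from the fit of its own tissue, the dashed line marking equal change. Purple points are genes whose change differed between the tissues by the test over all 66 libraries, and circles mark the 12 genes named for these tests, such as CDH17, which is at -5.43 in the oviduct and 5.62 in the endometrium.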

How the data were processed

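Per the study's methods, 13 bases were cut from the start of the reads, which the authors then aligned with TopHat2 to the pig genome build Sscrofa10.2 with the Ensembl annotation. The deposited table holds raw read counts per Ensembl gene, made by the authors and not normalized. The submitters' processing notes name featureCounts, Cufflinks, Cuffdiff, edgeR and FastQC without their roles, and whether counting used strand is not given in the sources used here, so overlapping and antisense genes cannot be told apart. Symbols came from a table of identifiers and names and matched 11804 of 25322 identifiers; genes without one are counted but, with 1 exception, not named.

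Counts were tested as deposited with edgeR (version 4.0.16, R 4.3.3; filterByExpr, TMM, robust quasi-likelihood fit) over the 22 libraries of the oviduct, with 1 coefficient per day and Benjamini-Hochberg adjustment over all 15665 genes. The SE is the log2 FC divided by the square root of F. Day 12 was also compared with day 9, and differences between tissues were contrasts in 1 fit over 66 libraries and 16934 genes. Column numbers start at 1 and sample titles at 0, so columns were assigned to a day and not to a sample. An endometrium sample of day 12 is not analysed here. Total counts ranged from 8962103 to 11573086, and intervals and floors cover counting error only. Intervals of ratios with 1 to 3 counts are exact Poisson ones.

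Named genes were the 12 largest rises and falls among DEGs with a symbol, without overlap and with at least 10 counts in every library of the higher day, the 5 largest rises and falls in CPM, up to 4 DEGs per direction and the 2 defining members of each of 23 gene lists, all 4 genes called against day 9, and 3 genes per direction with the lowest p for each tissue difference among DEGs of the oviduct; further list members are named where the text counts them and were chosen after their values were seen. Some genes that this rule selects are not reported here by name. Members and lists were chosen with earlier results of these data known. On simulated counts for day 12 against day 0 (15448 genes), the fit recovered 92 of 100 genes changed by 4-fold and 28 of 100 changed by 2-fold, with 9 false calls, and DESeq2 recovered 98 and 47 with 30 false calls (15665 genes). Alternatives were DESeq2 1.42.0, its size factors, no filter, only the groups compared, a replicate block, total count scaling and leaving out each library. Tables and plots used Python 3.11.15, numpy 2.4.6, pandas 2.3.3, scipy 1.17.1 and matplotlib 3.10.9.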

Additional observations from a re-analysis of the deposited data

Results flagged for a closer look

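In 13 of the genes named, 1 of the 4 day 12 libraries lay far from the other 3, measured as the gap to the nearest library divided by the whole range of the 4. This share was 1.0 for LBP, SLC5A5, ACTA1 and ENSSSCG00000005755, each with between 1 and 3 counts in all on day 12. It was 0.851 for ACTC1, 0.85 for GMNC, 0.862 for VCAN, 0.847 for ADAMTS14, 0.854 for NDC80, 0.843 for C5, 0.901 for MMP14, 0.836 for PTGS1 and 0.916 for RHCG. Chance alone marks about 1 in 20 groups, so some of all the genes named would be marked by chance. That rate does not hold for LBP, SLC5A5, ACTA1 and ENSSSCG00000005755, since all their counts of day 12 fell in 1 library.

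The change from day 0 to day 12 differed between tissues by the contrast in edgeR in 1497 genes between oviduct and endometrium and in 3330 genes between oviduct and ovary. As differences in log2 FC, oviduct minus endometrium, these were -5.88 for SLC2A8, -3.21 for MDH1, -11.1 for CDH17, 3.85 for CFI, 3.44 for CDC25B and 4.33 for MYC. Oviduct minus ovary, they were 4.81 for CFD, 1.8 for LRCH4, 1.95 for ADAM15, -2.57 for NNT, -4.16 for ERMP1 and -2.87 for INPP4A.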

How the results depend on the processing

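For day 12 against day 0, 2504 DEGs became 4001 with only the 2 days fitted and 3831 with total count scaling, which was chosen after seeing the data, and ranged from 1107 to 2119 when 1 library was left out; the cause was not tested. DESeq2 gave 3131, its size factors 2441 and no filter 2197. For day 12 against day 9, the number called was 4, with DESeq2 27, with only the 2 days fitted 1, which was none of the 4, and between 0 and 10 without 1 library. The genes differing between tissues were 3093 (endometrium) and 2185 (ovary) with only the 4 groups fitted, against 1497 and 3330, and 1041 to 1363 and 2367 to 3130 without 1 library. Among the genes named for day 12 against day 0, none that was called changed sign. MMP14, which was not called, went from -0.24 to 0.05 with total count scaling. Of the 1050 values without 1 library, 198 lost their call, and 11 values did with total count scaling. The 1050 include genes that were not called with all libraries, such as MMP14, and so had no call to lose. A block by sample title could not be fitted because columns are numbered differently. A replicate block by column number, added after seeing the data, gave 2486 DEGs, 0 genes against day 9 (755 at an unadjusted p under 0.05), 1655 and 3360 for the tissue differences, and took the call from 8 named genes of day 12 against day 0. Same-numbered libraries of day 12 and day 0 had correlations of deviations of -0.10, -0.02 and -0.08. Between tissues on day 12 they were 0.18, 0.16, 0.18 and 0.14 for oviduct and ovary, above the highest of other pairs (0.05), and 0.03, 0.15 and 0.07 for oviduct and endometrium; on day 0 they were 0.15, -0.02 and 0.0046 for ovary and 0.09, 0.13 and 0.22 for endometrium. All 4 of oviduct and ovary on day 12 were over 0.1. On day 0, those of oviduct and endometrium lay above every other pair, the highest of which was -0.0023. Each tissue difference uses both days, and for neither tissue were all same-numbered correlations of both days over 0.1. The numbers were therefore not taken as pairs, and whether they mark shared gilts is not known. Depth limits genes near 3 counts a library.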
